A study of Mus musculus with 6 samples.

Results

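The nuclear genes for respiratory complexes II to V and for cytochrome c were examined in livers of mice in which lipophagy, the autophagic removal of lipid droplets, had or had not been induced. Members were all gene symbols that begin with Uqcr, Cox4, Cox5, Cox6, Cox7, Cox8 or Atp5, together with Sdha, Sdhb, Sdhc, Sdhd, Cyc1 and Cycs. This rule uses names only and took 49 of the 24346 symbols in the table, namely 4 for complex II, 9 for complex III, 18 for complex IV, 17 for complex V and cytochrome c itself. The subunits of these complexes that are encoded by mitochondrial DNA were not analysed here, since 0 of the 12 names searched for them were found.

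Both groups were male C57BL/6 mice (C57BL/6J in the study's methods) that were 8 weeks old at the start of CDAHFD, a high-fat diet that lacks choline and supplies free amino acids in place of protein, which is used as a model of nonalcoholic steatohepatitis. After 6 weeks each mouse received 2e11 genome copies of an AAV8 vector intravenously, was returned to normal chow, and was analysed 2 weeks later. The 3 Control mice received LDTS-LIR mut, a lipid droplet-targeting sequence joined to a mutant LC3-interacting region, and the 3 Lipophagy mice received LDTS-eLIR, the same targeting sequence joined to an engineered region that binds LC3. The vectors expressed from the liver-specific thyroxine-binding globulin promoter, and the droplet-targeting part was present in both groups. Poly(A) RNA of whole liver was measured as FPKM (fragments per kilobase of transcript, scaled to all mapped fragments), with 1 library per mouse.

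Complex II oxidises succinate and passes the electrons to ubiquinone, complex III moves them from ubiquinol to cytochrome c, and complex IV hands them to oxygen. Complexes III and IV pump protons, and complex V, the ATP synthase, uses the resulting gradient to make ATP. Liver is rich in mitochondria, and it uses this chain for the energy of glucose, urea and lipid metabolism. Complex IV subunits exist in several isoforms, some of them known from muscle, lung or testis rather than from liver.

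Promoters of these genes are known for sites of the regulators NRF1, GABP, YY1 and the estrogen-related receptors (ERR). RefSeq promoter windows (build GRCm38.p6, a patch of the assembly also called mm10, 250 bases before to 50 bases after the start) were matched for 36 of the 44 members that had enough signal to be tested. The 120 bases before the start are shown, 5′ to 3′ on the gene's strand, for 3 members with the NRF1 core, 3 with the ETS motif bound by GABP and the member with the largest difference between the groups, in whose window none of the motifs searched was found. Capitals mark the NRF1 core (CGCATGCG) in Cycs, Atp5g2 and Atp5k, the ETS motif (CCGGAAG, here as CTTCCGG on the other strand) in Sdhd, Uqcrh and Cox6a1, and a GC box (GGGGCGG, here as CCGCCCC) in Cox6a1.
Cycs, chr6:50566570-50566689 on the minus strand: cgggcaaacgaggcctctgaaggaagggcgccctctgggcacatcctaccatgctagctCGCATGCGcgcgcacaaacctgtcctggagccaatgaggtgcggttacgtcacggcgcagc
Atp5g2, chr15:102671048-102671167 on the minus strand: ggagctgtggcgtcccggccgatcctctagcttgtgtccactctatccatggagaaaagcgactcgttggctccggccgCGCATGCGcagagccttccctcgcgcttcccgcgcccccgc
Atp5k, chr5:108434400-108434519 on the minus strand: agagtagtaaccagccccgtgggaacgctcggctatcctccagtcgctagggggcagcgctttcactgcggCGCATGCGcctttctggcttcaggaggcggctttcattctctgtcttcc
Sdhd, chr9:50603850-50603969 on the minus strand: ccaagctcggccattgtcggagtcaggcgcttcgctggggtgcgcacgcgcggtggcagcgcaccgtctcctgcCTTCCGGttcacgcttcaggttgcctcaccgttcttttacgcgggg
Uqcrh, chr4:116075071-116075190 on the minus strand: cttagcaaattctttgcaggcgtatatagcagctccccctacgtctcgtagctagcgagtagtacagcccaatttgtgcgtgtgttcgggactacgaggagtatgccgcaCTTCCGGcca
Cox6a1, chr5:115348959-115349078 on the minus strand: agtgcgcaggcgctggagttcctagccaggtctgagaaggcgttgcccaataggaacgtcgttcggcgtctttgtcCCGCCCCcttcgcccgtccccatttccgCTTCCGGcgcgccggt
Cox7b, chrX:106015580-106015699 on the plus strand: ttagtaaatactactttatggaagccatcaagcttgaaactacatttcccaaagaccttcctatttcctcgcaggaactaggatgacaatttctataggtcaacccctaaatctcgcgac
The NRF1 core began 61, 41 and 49 bases before the start in Cycs, Atp5g2 and Atp5k, and the ETS motif 46, 10 and 16 bases before it in Sdhd, Uqcrh and Cox6a1.

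Over the whole windows and on both strands, the NRF1 core was found in 7 of 36 member promoters (19.4%), against 1.91% of all 27025 promoters and 4.04% of the 8822 promoters of tested genes. The 7 were Cycs, Atp5g2, Atp5k, Atp5l, Cox6a1, Uqcr11 and Uqcrc1. The ETS motif was found in 11 (30.6%, against 9.12% of all promoters and 18.8% of those of tested genes). ERR letters (TCAAGGTCA) occurred in Sdhd and Atp5g3 (5.56%, against 0.407% and 0.261%), and YY1 letters (AAGATGGCG) in Atp5j2 and Atp5sl (5.56%, against 1.49% and 3.39%). A GC box stood in 10 member promoters (27.8%), against 23.4% of all and 43.1% of those of tested genes. No motif's letters contain those of another. Such matches are letters in a window and not sites of measured binding.

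Depth was estimated from the steps in low FPKM values, because many low values stand for a small whole number of fragments. Between 65.7% and 74.9% of the low genes compared lay on such steps, against 1.41% to 2.19% at a typical offset, and the depth came to 23.4 to 33.5 M fragments in Control livers and 22.4 to 24.4 M in Lipophagy livers. The sum of all FPKM values was 622696 to 681138 in Control livers and 709993 to 782392 in Lipophagy livers, so that it was higher in every Lipophagy liver. Alb, which encodes albumin and was the highest gene of every liver, took 5.40% to 6.20% of that sum in Control livers and 6.13% to 8.19% in Lipophagy livers. The replicates are livers of separate mice as the labels number them.

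To ask whether lipophagy was accompanied by another level of respiratory chain transcripts, log2(FPKM + 1) was compared with limma over the 11493 genes that averaged 0.5 FPKM or more. Of the 49 members, 44 passed this filter. The mean was higher in Lipophagy livers for 43 of them and lower for Cox6b2, and it was higher for 54.5% of all tested genes. The median log2 difference of the members was 0.29, with a median ratio of the group means of 1.24, against a median of 0.020 over all tested genes. No member passed an adjusted p of 0.05 (limma, Benjamini-Hochberg over all tested genes), a threshold passed by 3 of all tested genes (0.0261%). The lowest adjusted p among members was 0.124, for Uqcrc2. An unadjusted p below 0.05 with a higher mean in Lipophagy livers was found for 31 members, whereas 11.5% of all tested genes met this rule. For 34 members every Lipophagy liver lay above every Control liver, against 15.4% of all tested genes. All differences are on the log2(FPKM + 1) scale.

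**Figure D1:**
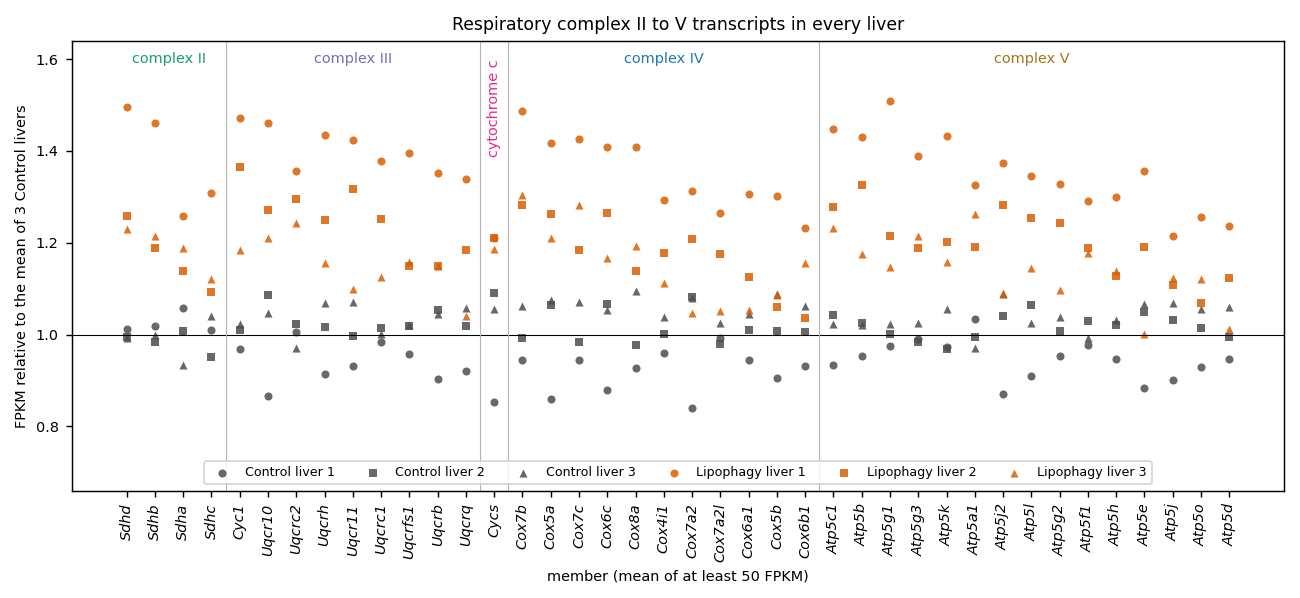
FPKM of the 40 members with a mean of at least 50 FPKM, each divided by the mean of the 3 Control livers (vertical axis, no unit), ordered within complexes by the log2 difference (horizontal axis). Grey symbols are Control livers, orange symbols are Lipophagy livers, and the line at 1 is the Control mean. Lipophagy liver 1 is the highest point for 39 of the 40 members and Control liver 1 the lowest for 31.

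The livers did not contribute evenly, as the plot of values relative to the Control mean shows. Among the 44 tested members, Lipophagy liver 1 held the highest value of 40 (90.9%), whereas it held the highest value of 28.5% of all tested genes. Control liver 1 held the lowest value of 33 members (75.0%), against 24.3% of all tested genes. These livers also had the highest and the lowest sum of all FPKM values. Without Lipophagy liver 1, 43 of 44 members still had the higher mean in Lipophagy livers, the median difference was 0.23 and 21 members had an unadjusted p below 0.05, against 6.96% of all tested genes. Without Control liver 1 the median was 0.26 and 22 members had such a p, against 8.32%.

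The scale of the values mattered too. Where each liver was brought to the same sum of FPKM (as TPM), the median over all tested genes moved from 0.020 to −0.12 and that of the members from 0.29 to 0.11. Relative to the median of all tested genes, the members were then higher by 0.23, compared with 0.27 before, and 43 of 44 lay above that median on either scale. With quantile normalization the members were higher than that median by 0.097, and 36 of 44 lay above it. The count of members with the higher mean, 43 as deposited, was 40 on the common sum and 37 with quantile normalization. On the common sum 9 members were higher with an unadjusted p below 0.05, against 2.05% of all tested genes. Over all tested genes the split of such calls was 1327 higher and 916 lower as deposited, and 236 higher and 2504 lower on the common sum. As a share of the sum, the 49 members together took 2.46% in Control liver 1, 2.54% in Control liver 2 and 2.53% in Control liver 3. The Lipophagy livers, at 2.86%, 2.68% and 2.64%, all lay above them.

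**Figure D2:**
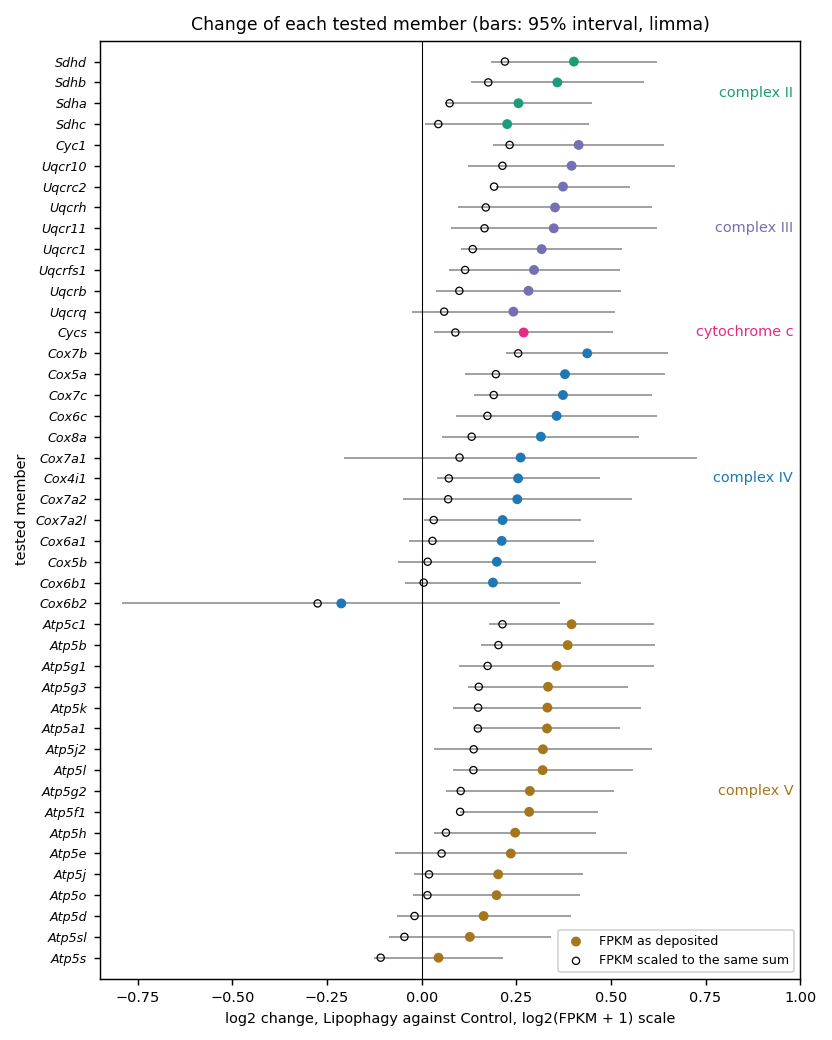
Log2 difference between Lipophagy and Control livers (horizontal axis, log2(FPKM + 1) scale) for each of the 44 tested members (vertical axis), grouped by complex. Filled points are FPKM as deposited with bars for the 95% interval from limma, and open circles are the same after scaling each liver to the same sum. The filled points lie above 0 for every member but Cox6b2, and the open circles lie closer to 0 except for Cox6b2 and Atp5s.

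The 4 succinate dehydrogenase genes of complex II, which also belong to the tricarboxylic acid cycle, each had the higher mean in Lipophagy livers, and none passed the adjusted threshold by limma. All 4 had non-overlapping groups (15.4% of all tested genes) and an unadjusted p below 0.05 (11.5%), with differences from 0.23 to 0.40 and a median of 0.31, which was 0.12 on the common sum and 0.13 with quantile normalization. Sdhd, a membrane anchor of the complex (gene at chr9:50596340-50603849 in GRCm38.p6, the build of all positions given here), measured 180.4, 177 and 177 FPKM in Control livers 1, 2 and 3, against 266, 224 and 219 FPKM in Lipophagy livers 1, 2 and 3. The Control values lay close together, Lipophagy liver 1 was the highest, and the difference was 0.40 (SE 0.095), with a limma adjusted p of 0.134. Sdhb, the iron-sulfur subunit and the most abundant of the 4 by FPKM, measured 264, 255 and 259 FPKM in the Control livers against 379, 308 and 315 FPKM in the Lipophagy livers. Its groups did not overlap, and the difference was 0.36 (SE 0.099), adjusted p 0.156 by limma. Sdha, the flavoprotein that oxidises succinate, measured 141, 134 and 125 FPKM in the Control livers against 168, 152 and 159 FPKM in the Lipophagy livers. The difference was 0.26 (SE 0.085), with a limma adjusted p of 0.188. Sdhc, the other anchor, had the smallest difference of the complex. It measured 137, 129 and 141 FPKM in the Control livers against 178, 148 and 152 FPKM in the Lipophagy livers, and the difference was 0.23 (SE 0.094), adjusted p 0.247 by limma. Summed over the complex, Control livers held 722, 696 and 701 FPKM and Lipophagy livers 991, 832 and 845 FPKM.

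Complex III had a median difference of 0.35, with a range of 0.24 to 0.41 over its 9 members. Non-overlapping groups were found for 8 of them (15.4% of all tested genes) and an unadjusted p below 0.05 for 8 (11.5%). The median was 0.17 on the common sum and 0.15 with quantile normalization. Cyc1, the heme-bearing cytochrome that passes electrons to cytochrome c (gene at chr15:76343513-76346260), measured 182, 189.5 and 192 FPKM in Control livers 1, 2 and 3, against 276, 256 and 222 FPKM in Lipophagy livers 1, 2 and 3. Every Lipophagy liver was above every Control liver, and the difference was 0.41 (SE 0.098), with a limma adjusted p of 0.134. Uqcrc2, a core protein of the complex (gene at chr7:120635189-120659523), measured 134, 136 and 129 FPKM in the Control livers against 180.4, 172 and 165 FPKM in the Lipophagy livers. Its Lipophagy livers lay close to each other, at 173 ± 7.53 FPKM against 133 ± 3.53 FPKM in Control livers (mean ± SD, n = 3 per group), and its difference of 0.37 (SE 0.076) gave the lowest adjusted p of all members, 0.124 by limma. Uqcr10, a small accessory subunit, measured 367, 461 and 444 FPKM in the Control livers against 619.8, 539 and 514 FPKM in the Lipophagy livers. Control liver 1 stood below the other Control livers, and the difference was 0.40 (SE 0.12), adjusted p 0.169 by limma.

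Uqcrq, another small subunit and the most abundant member of complex III by FPKM, was the exception. It measured 761, 842 and 874 FPKM in the Control livers against 1105, 977 and 859 FPKM in the Lipophagy livers, so that Lipophagy liver 3 lay below Control liver 3 and the groups overlapped. Its difference was 0.24 (SE 0.12), with a 95% interval of −0.025 to 0.51 and a limma adjusted p of 0.291. The other core protein Uqcrc1, the Rieske iron-sulfur protein Uqcrfs1, the hinge protein Uqcrh and the small subunits Uqcrb and Uqcr11 had differences from 0.28 to 0.35, all with non-overlapping groups. The summed level of the complex was 3304, 3671 and 3758 FPKM in Control livers and 5004, 4442 and 4033 FPKM in Lipophagy livers.

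Cycs, the soluble carrier between complexes III and IV, was the least abundant of the 40 members with a mean of at least 50 FPKM, at 54.0, 68.9 and 66.8 FPKM in Control livers 1, 2 and 3, against 76.5, 76.5 and 75.1 FPKM in Lipophagy livers 1, 2 and 3. The Lipophagy livers were nearly equal, Control liver 1 was lower than the other Control livers, and the groups did not overlap. The difference was 0.27 (SE 0.10), with a limma adjusted p of 0.221, and it was 0.16 without Control liver 1. Its promoter is among those with the NRF1 core printed above. Cyct, the testis form of cytochrome c, was listed at 0 in every liver but Lipophagy liver 3.

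Complex IV holds isoforms of several tissues. Of its 18 members 13 were tested, 12 with the higher mean in Lipophagy livers. Their median difference was 0.25, with a range of −0.21 to 0.44, and 8 members had non-overlapping groups (15.4% of all tested genes) while 7 had an unadjusted p below 0.05 (11.5%). Among the abundant forms, Cox5b, Cox6b1 and Cox7a2 had overlapping groups. The median of the complex was 0.072 on the common sum and 0.061 with quantile normalization. Cox7b, an accessory subunit encoded on the X chromosome (chrX:106015700-106022450), had the largest difference of all members over the 6 livers. It measured 194, 204 and 218 FPKM in Control livers 1, 2 and 3, against 305, 263 and 268 FPKM in Lipophagy livers 1, 2 and 3. The lowest Lipophagy liver was well above the highest Control liver, and the difference was 0.44 (SE 0.093), with a limma adjusted p of 0.131 and a 95% interval of 0.22 to 0.65.

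Next to it stood Cox5a, a nuclear subunit that joins the complex early in its assembly (gene at chr9:57517328-57532427). It measured 226, 279.8 and 283 FPKM in the Control livers against 373, 332 and 318 FPKM in the Lipophagy livers, with Control liver 1 lower than the others. Its difference was 0.38 (SE 0.11), adjusted p 0.170 by limma. Cox7c, another accessory subunit, measured 543, 566 and 616 FPKM in the Control livers against 820.3, 681 and 737 FPKM in the Lipophagy livers. The groups did not overlap, and the difference was 0.37 (SE 0.10), adjusted p 0.153 by limma. Cox6c, an accessory membrane subunit, measured 604, 732 and 724 FPKM in the Control livers against 967, 868 and 800.4 FPKM in the Lipophagy livers. The difference was 0.36 (SE 0.12), with a limma adjusted p of 0.183, and the groups did not overlap.

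The isoform pairs of complex IV were read from the level of each gene. Cox4i1, the common form of subunit IV and the most abundant member of the complex by FPKM, measured 690.3, 721 and 747 FPKM in the Control livers against 931, 848 and 801 FPKM in the Lipophagy livers. The groups did not overlap, and the difference was 0.25 (SE 0.093), adjusted p 0.211 by limma. Cox4i2, the form known from lung and from low oxygen, measured 0.135, 0.302 and 0.476 FPKM in the Control livers against 0.153, 0.237 and 0.0729 FPKM in the Lipophagy livers, too low to be tested. Cox6a1, the liver form of subunit VIa, measured 658, 702 and 728 FPKM in the Control livers against 909, 784 and 733 FPKM in the Lipophagy livers, and the lowest Lipophagy liver was just above the highest Control liver. Its difference was 0.21 (SE 0.11), adjusted p 0.306 by limma, but 0.029 on the common sum and −0.017 with quantile normalization. Without Lipophagy liver 1 that difference was 0.12. Cox6a2, the heart and skeletal muscle form, measured 0.387, 0.172 and 0.181 FPKM in the Control livers against 0.175, 0.0905 and 0.666 FPKM in the Lipophagy livers and was not tested.

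Subunit VIb gave the smallest difference among the abundant genes of complex IV. Cox6b1, its common form, measured 666, 719 and 759 FPKM in the Control livers against 880.3, 740.2 and 826 FPKM in the Lipophagy livers, so that Control liver 3 was above Lipophagy liver 2. The difference was 0.19 (SE 0.10), with a 95% interval of −0.045 to 0.42 and a limma adjusted p of 0.334, and it was −0.025 with quantile normalization. Cox6b2, the testis form, was the tested member with the lower mean in Lipophagy livers. It measured 0.398, 0.884 and 0.981 FPKM in the Control livers against 0.297, 1.27 and 0.141 FPKM in the Lipophagy livers, which an estimate from length and depth puts at 0.978 to 9.36 fragments per liver. The Lipophagy livers included both the lowest value and the highest, and the difference of −0.21 (SE 0.25) had an adjusted p of 0.659 by limma.

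For subunit VIIa, the liver form Cox7a2 was far above the muscle form. Cox7a2 measured 265, 341 and 340.4 FPKM in the Control livers against 414, 381 and 330.1 FPKM in the Lipophagy livers, with overlapping groups and a difference of 0.25 (SE 0.13), adjusted p 0.319 by limma. Without Control liver 1 that difference was 0.13. Cox7a1, the heart and skeletal muscle form, measured 5.83, 6.36 and 8.65 FPKM in the Control livers against 9.09, 10.8 and 6.01 FPKM in the Lipophagy livers. Its groups overlapped, and the difference of 0.26 (SE 0.20) had a limma adjusted p of 0.486. That difference was 0.099 without Lipophagy liver 2 and 0.47 without Lipophagy liver 3. Cox7a2l, which is known as an assembly factor that joins complexes III and IV, measured 143, 141 and 148 FPKM in the Control livers against 182, 169 and 151 FPKM in the Lipophagy livers. The groups did not overlap, and the difference was 0.21 (SE 0.090), adjusted p 0.249 by limma.

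Subunit VIII was present as Cox8a, the form of most tissues, which measured 480.0, 506 and 567 FPKM in the Control livers against 729.9, 589 and 618 FPKM in the Lipophagy livers. The groups did not overlap, and the difference was 0.31 (SE 0.11), adjusted p 0.205 by limma. Cox8b, the muscle form, measured 0.223 FPKM in Control liver 2 and 0.239 FPKM in Lipophagy liver 2 and was listed at 0 in the other livers. Cox7b2 and Cox8c, testis forms, were listed at 0 in all 6 livers. Of 6 muscle marker genes, Ckm and Myh4 were listed at 0 in all livers, and the summed level of the 6 was 1.01 to 1.61 FPKM in Control livers and 0.828 to 2.44 FPKM in Lipophagy livers. The brown fat markers Ucp1 and Cidea summed to at most 0.10 FPKM.

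**Figure D3:**
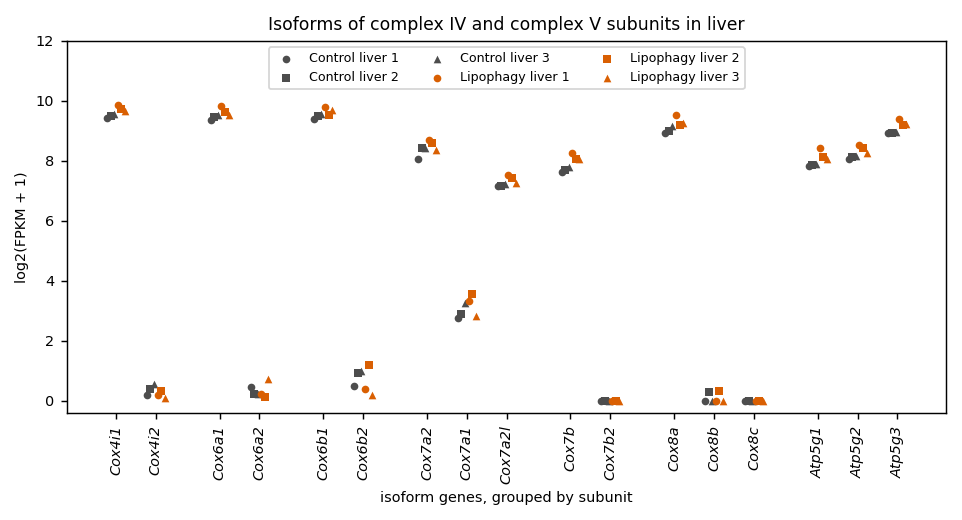
Level of the isoform genes of complex IV subunits and of subunit c of complex V (horizontal axis) as log2(FPKM + 1) (vertical axis) in each liver, with grey symbols for Control and orange symbols for Lipophagy livers. The liver forms lie above 100 FPKM, Cox7a1 lies between 5.83 and 10.8 FPKM, and Cox4i2, Cox6a2, Cox6b2, Cox7b2, Cox8b and Cox8c lie near 0.

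All 17 members of complex V were tested, and all had the higher mean in Lipophagy livers as deposited. Atp5d, Atp5s and Atp5sl were below 0 on the common sum, and Atp5d, Atp5e and Atp5o with quantile normalization, with a median of 0.10 for the complex in both. As deposited, their median difference was 0.29, with a range of 0.045 to 0.40, and 13 had non-overlapping groups (15.4% of all tested genes) while 11 had an unadjusted p below 0.05 (11.5%). In the catalytic head, Atp5c1, the rotating central shaft (gene at chr2:10056030-10080510), had the largest difference. It measured 259, 289 and 283 FPKM in Control livers 1, 2 and 3, against 401, 354 and 341 FPKM in Lipophagy livers 1, 2 and 3. Every Lipophagy liver was above every Control liver, and the difference was 0.40 (SE 0.095), with a limma adjusted p of 0.135. Atp5b, the catalytic beta subunit (gene at chr10:128083307-128090388), measured 597, 641 and 639 FPKM in the Control livers against 894, 829 and 736 FPKM in the Lipophagy livers. Its groups did not overlap either, and the difference was 0.39 (SE 0.10), adjusted p 0.144 by limma. Atp5a1, the alpha subunit that alternates with beta in the head, differed by 0.33 (SE 0.083). The small shaft subunits Atp5d and Atp5e had overlapping groups, with differences of 0.16 (SE 0.10) and 0.24 (SE 0.13).

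The ring of subunit c, which turns as protons pass, is encoded by 3 genes whose mature proteins are identical. Atp5g1 measured 224, 229.9 and 235 FPKM in the Control livers against 346, 279 and 264 FPKM in the Lipophagy livers, with a difference of 0.36 (SE 0.11) and an adjusted p of 0.177 by limma. Atp5g2 measured 263, 278 and 287 FPKM in the Control livers against 367, 343 and 303 FPKM in the Lipophagy livers, with a difference of 0.29 (SE 0.096) and an adjusted p of 0.194 by limma. Atp5g3, the most abundant of them, measured 483, 480.2 and 501 FPKM in the Control livers against 678, 579.8 and 593 FPKM in the Lipophagy livers, with a difference of 0.33 (SE 0.092) and an adjusted p of 0.154 by limma. None of the 3 had overlapping groups, and their sum was 970, 988 and 1023 FPKM in Control livers and 1390, 1202 and 1160 FPKM in Lipophagy livers. The shares of the 3 genes in this pool were close between the groups. Atp5g1 gave 23.1% ± 0.141 of it in Control livers and 23.6% ± 1.14 in Lipophagy livers (SD, n = 3 per group), Atp5g2 27.8% ± 0.572 and 27.0% ± 1.33, and Atp5g3 49.1% ± 0.623 and 49.4% ± 1.56, so each share differed by less than its spread in Lipophagy livers.

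Atp5k, one of the small membrane subunits that join ATP synthase into dimers, was the most abundant member by FPKM. It measured 839.6, 836 and 911 FPKM in the Control livers against 1234, 1035 and 999 FPKM in the Lipophagy livers, and the difference was 0.33 (SE 0.11) with non-overlapping groups and a limma adjusted p of 0.184. Its neighbours in the membrane part, Atp5j2 and Atp5l, each differed by 0.32, and their groups did not overlap. In the peripheral stalk that holds the head still, Atp5f1, Atp5h, Atp5j and Atp5o had differences of 0.28, 0.25, 0.20 and 0.20, all with non-overlapping groups.

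The prefix also took a pair of genes that are not subunits of ATP synthase, Atp5s (renamed Dmac2l) and Atp5sl (renamed Dmac2, a factor in the assembly of complex I). Atp5s measured 4.80, 5.11 and 5.03 FPKM in the Control livers against 5.29, 4.95 and 5.27 FPKM in the Lipophagy livers. The groups overlapped, and with 0.045 (SE 0.074) and a limma adjusted p of 0.758 it was the tested member nearest to no difference. Its sign was not stable, since it was −0.11 on the common sum. Atp5sl differed by 0.13 (SE 0.093), also with overlapping groups. By FPKM both lay far below the subunits, at 4.98 ± 0.160 and 16.4 ± 1.75 FPKM in Control livers (mean ± SD, n = 3).

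**Figure D4:**
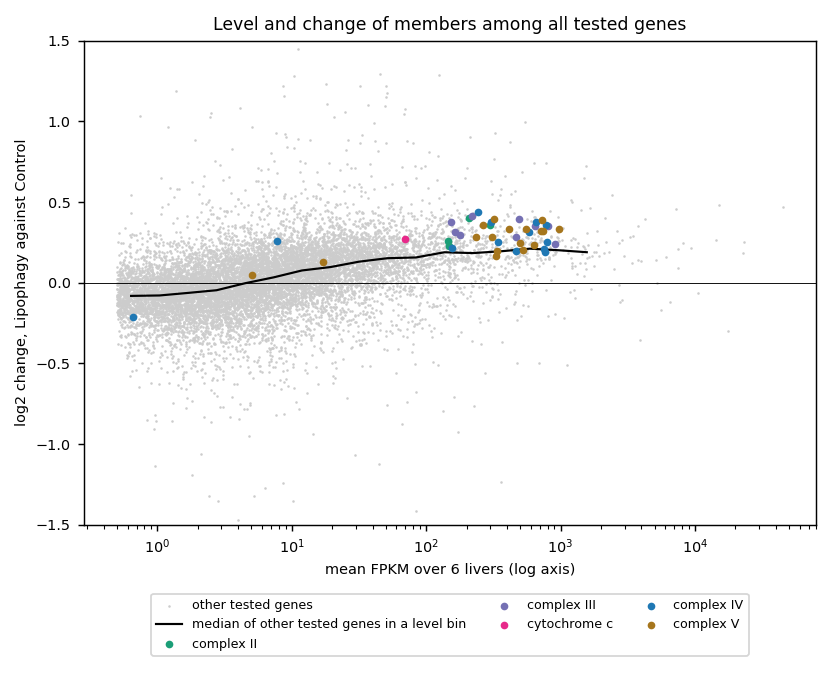
Log2 difference between Lipophagy and Control livers (vertical axis, log2(FPKM + 1) scale) against mean FPKM over the 6 livers (horizontal axis, log scale) for 11428 other tested genes in grey and the tested members in colour by complex. The black line is the median of the other genes in bins of level, and 21 genes beyond a difference of 1.5 in either direction are not drawn. The line climbs with level, and most members lie above it.

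The level of a gene went along with its difference in these livers. Among the tested genes other than members, the median difference was −0.060 below 5 FPKM (5310 genes), 0.076 from 5 to 50 FPKM (4771 genes), 0.15 from 50 to 100 FPKM (561 genes) and 0.19 above 100 FPKM (807 genes, 85.5% of them higher in Lipophagy livers). Of the tested members, 39 lay in the highest class, with a median of 0.32. By transcript length the classes differed less, since the 1150 other genes in the shortest class had a median of 0.058 and those in the longest class −0.045, and the 19 members in the shortest class had a median of 0.31. The part of level in the members' difference was not tested.

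Other abundant gene groups also had higher means in Lipophagy livers. The 37 genes taken by name as complex I subunits had a median difference of 0.27. The mean was higher in Lipophagy livers for 36 of them, 26 with an unadjusted p below 0.05, against 54.5% and 11.5% of all tested genes. They include Ndufa4, which is counted below among the subunits with names outside the rule as well. Cytosolic ribosomal protein genes, which are not mitochondrial, were also higher for 78 of 78 tested, with a median of 0.22 and 19 with such a p. Neither list held a gene with an adjusted p below 0.05 by limma.

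Genes that build or surround complexes II to V were read in lists, none of which had a gene with an adjusted p below 0.05 by limma. The counts stand against 54.5% of all tested genes with the higher mean and 11.5% with the higher mean and an unadjusted p below 0.05, so that lists with 0 or 1 such gene are near or below that share. For complex IV assembly and copper delivery, 21 of 22 tested genes had the higher mean and 7 of these an unadjusted p below 0.05, with a median of 0.22. The range ran from −0.052 (SE 0.14) for Cox19, a copper chaperone, to 0.37 (SE 0.11) for Cox16, an assembly factor. For complex II assembly, 3 of 4 genes were higher, 0 with such a p (Sdhaf1 0.29, Sdhaf3 −0.041). For complex III assembly, 5 of 6 were higher and 1 had such a p (Uqcc1 0.27, Uqcc3 −0.023). For complex V, 3 of 4 assembly factors and inhibitors were higher, 0 with such a p. Atpaf1, an assembly factor of the head, differed by 0.24 and Atpif1, the inhibitor of ATP hydrolysis by the enzyme, by −0.15.

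Subunits and related proteins with names outside the rule were higher too, since 6 of 6 tested were higher and 5 had an unadjusted p below 0.05. Usmg5, a small subunit of the ATP synthase membrane part, had the largest difference, 0.39 (SE 0.11), and Higd2a, an assembly factor of complex IV, the smallest, 0.081 (SE 0.089). All 12 tested genes of coenzyme Q synthesis, which makes the ubiquinone that complexes II and III share, had the higher mean, 5 of them with such a p and with a median of 0.19. Coq10b, a coenzyme Q-binding protein, measured 23.0, 25.7 and 23.2 FPKM in the Control livers against 30.8, 28.6 and 57.6 FPKM in the Lipophagy livers. Lipophagy liver 3 stood far above the rest, and the difference was 0.61 (SE 0.23). Coq10a, the related binding protein, differed by 0.015 (SE 0.13).

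Transcriptional regulators of respiration had a median difference of 0.097 over 13 tested genes, of which 11 were higher. Their mean levels were 0.579 to 18.8 FPKM, in the classes where other genes had a median of −0.060 (below 5 FPKM) or 0.076 (5 to 50 FPKM). The regulators of the motifs searched differed by 0.097 (Nrf1), 0.044 (Gabpa), 0.039 (Gabpb1), 0.026 (Yy1) and 0.12 (Esrra), all with overlapping groups. Esrrg was too low to be tested. Tfb2m, a factor for transcription of mitochondrial DNA, was the one with an unadjusted p below 0.05. It measured 11.3, 10.4 and 9.79 FPKM in the Control livers against 12.5, 12.9 and 13.4 FPKM in the Lipophagy livers, without overlap of the groups and with a difference of 0.28 (SE 0.080) and an adjusted p of 0.161 by limma. Pprc1, a coactivator of nuclear respiratory genes, measured 2.29, 2.12 and 2.02 FPKM in the Control livers against 1.86, 1.99 and 1.94 FPKM in the Lipophagy livers and differed by −0.10 (SE 0.076), adjusted p 0.467 by limma. Of 11 genes for ADP and phosphate carriers and other mitochondrial proteins, 9 were higher, 7 with an unadjusted p below 0.05, and 1 was lower with such a p (7.97% of all tested genes). Chchd3, a protein of the cristae junctions, differed by 0.31 (SE 0.087). Slc25a4, an ADP/ATP carrier best known from muscle and heart, measured 9.80, 8.13 and 9.28 FPKM in the Control livers against 7.87, 8.06 and 6.92 FPKM in the Lipophagy livers, with all Lipophagy livers below all Control livers and a difference of −0.22 (SE 0.095), adjusted p 0.250 by limma.

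Markers of the cell types in liver were set beside these values. The summed level of 8 hepatocyte markers was 57073 to 64022 FPKM in Control livers and 69067 to 91312 FPKM in Lipophagy livers, with 7 of 8 higher, 2 of them with an unadjusted p below 0.05 (54.5% and 11.5% of all tested genes). Without Alb the other 7 summed to 24918, 21603 and 24863 FPKM in the Control livers against 27222, 24058 and 26608 FPKM in the Lipophagy livers, and the groups overlapped. For 6 stellate cell markers it was 17.1 to 18.1 and 13.2 to 14.1 FPKM, with 5 of 6 lower. Acta2, Col1a1 and Pdgfrb were lower with an unadjusted p below 0.05 and non-overlapping groups, against 7.97% of all tested genes lower with such a p. For 7 macrophage markers it was 476 to 628 and 463 to 588 FPKM (3 higher, 4 lower), a sum carried by Lyz2, and Cd68 and Csf1r were lower with such a p while 0 were higher with one. For 5 bile duct markers it was 137 to 247 and 92.0 to 196 FPKM (5 of 5 lower), a sum carried by Spp1. Of these 5, 0 had an unadjusted p below 0.05 and 0 had non-overlapping groups. For 7 lymphocyte markers, 3 of them tested and 1 lower with such a p, it was 4.58 to 5.56 and 3.50 to 4.30 FPKM. Sinusoidal endothelium markers summed to 23.0 to 28.1 and 26.7 to 42.6 FPKM (4 of 6 higher), and blood markers to 107 to 130 and 118 to 431 FPKM (4 of 4 higher). The blood sum of Lipophagy liver 2 stood apart, and without it the Lipophagy livers were at 153 and 118 FPKM, overlapping the Control livers. In whole liver, fewer cells of a type and less RNA per cell cannot be told apart. The part of these shifts in the members' difference was not tested.

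Some members share sequence with other genes. At 95% identity over at least 200 bases, 13 of 49 members had a copy in another annotated gene, mostly pseudogenes, with 9 for Atp5l and 4 each for Atp5h and Cycs. They include Cox7b (2) and Atp5c1 (1), which had the largest differences of their complexes, and Cox6c, Atp5g1 and Atp5g2. How fragments were divided between such copies is not given in the sources used here, and the values of these members are less certain. A gene with a matching transcript was itself listed in the table for Cox7c (Gm10012) and Atp5o (Donson). Matches were grouped by gene name, and whether the Donson match is a separate copy was not checked. The other 36 members, among them all of complex II and 8 of 9 members of complex III, had none.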

How the data were processed

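Poly(A) RNA of 6 mouse livers (3 Control, 3 Lipophagy, as the labels group them) was sequenced in paired-end mode with reads of 100 bases. The authors deposited FPKM values per gene symbol and liver, already scaled to transcript length and to mapped fragments. The submitters' processing notes name TopHat2 2.0.13, Bowtie2 2.2.3, SAMtools 0.1.19, Cufflinks 2.2.1 and mm10. The annotation is not given in the sources used here, and 27 symbols had been turned into dates.

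FPKM values were not treated as counts. Genes averaging 0.5 FPKM or more were compared as log2(FPKM + 1), which understates differences of low genes, with limma 3.58.1 in R 4.3.3 (intensity trend, two-sided, no covariates) and Benjamini-Hochberg adjustment over 11493 genes at 0.05. The procedure was tested on simulated data. Depth was estimated with the median transcript length of GENCODE (GRCm38) less 150 bases, so numbers of fragments are estimates that cover counting error only. Copies were searched with BLAST 2.17.0, and Python 3.11.15 with numpy 2.4.6, pandas 2.3.3 and matplotlib 3.10.9 served for tables and plots.

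Values in every liver are given for the 3 members of each complex with the largest difference, the member nearest to no difference, the most abundant member, the isoform groups and Cycs, and in each pathway list the genes with the most positive and most negative difference are named. Other members and genes are given as values beside them. The members and lists were chosen with earlier results of these data known. Alternatives were another pseudocount, other filters, quantile normalization, scaling to the same median or sum, removal of the length and GC trend, limma without the trend, a replicate block and each liver left out.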

Additional observations from a re-analysis of the deposited data

How the results depend on the processing

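No setting brought a member to an adjusted p below 0.05 by limma. The lowest over 16 alternatives was 0.0869, on the same sum (TPM), where 104 of all 11493 tested genes passed, against 3 as deposited. With the sum taken over all genes but Alb 72 genes passed, and at most 43 in any other setting. The count of members higher with an unadjusted p below 0.05 (31 as reported) was 7 with quantile normalization, 9 on the same sum (TPM) and 13 on the same sum taken over all genes but Alb, a setting chosen after seeing the data, against 6.48%, 2.05% and 2.47% of all tested genes. In the same order, 15, 19 and 20 members had non-overlapping groups, against 10.2%, 2.74% and 3.42%, and the median difference was 0.10, 0.11 and 0.13 over all tested members, 0.13, 0.12 and 0.14 for complex II, 0.15, 0.17 and 0.19 for complex III, 0.061, 0.072 and 0.092 for complex IV and 0.10, 0.10 and 0.12 for complex V. The cause was not tested. Of 447 values for 28 named members, 442 kept their direction and side of the threshold and 5 changed sign. These were Atp5s at −0.11 (same sum), −0.0067 (length and GC trend taken off) and −0.091 (same sum without Alb), and, with quantile normalization, Cox6a1 at −0.017 and Cox6b1 at −0.025. Of the members outside that rule, Atp5d, Atp5e, Atp5o and Cox5b were also below 0 with quantile normalization, Atp5d and Atp5sl on the same sum, and Atp5sl on the same sum without Alb.

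With each liver left out in turn, 21 to 36 members had an unadjusted p below 0.05 (6.96% to 14.0% of all tested genes), 34 to 39 had non-overlapping groups (18.4% to 25.9%), and the median difference was 0.23 to 0.35 over all tested members. It was 0.24 to 0.35 for complex II, 0.27 to 0.40 for complex III, 0.20 to 0.34 for complex IV and 0.24 to 0.35 for complex V. With the replicate number as a block (replicate block), 25 members had such a p (9.86% of all tested genes). None had an adjusted p below 0.05 by limma, the lowest being 0.148, whereas 43 of all 11493 tested genes did. The deviations of Control and Lipophagy livers with the same number correlated at 0.25, 0.23 and −0.057. Livers with different numbers correlated at −0.39 to 0.25, a range that reached as high, so the numbers were not taken as pairs. Depth limits Cox4i2, Cox6a2, Cox6b2, Cox7b2, Cox8b and Cox8c, whose values rest on few fragments or none.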
